A study of Mus musculus with 18 samples.

Results

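The effect of Pcm1 genotype that was common to 3 brain regions was estimated from all 18 RNA sequencing libraries of the study in a single model with terms for region and genotype. Of 17545 genes tested, 992 (5.65%) passed an adjusted p of 0.05 for the common effect, 701 (4.0%) of them higher and 291 (1.66%) lower in mutants (limma with voom weights, libraries of an animal treated as correlated, Benjamini-Hochberg adjustment). Of these, 970 (5.53% of genes tested) had the same direction of effect in frontal cortex, striatum and hippocampus and are called shared genes here. They divided into 682 genes that were higher in Pcm1-/- libraries (3.89% of genes tested) and 288 that were lower (1.64%). Rising genes were thus 70.3% of shared genes, a share that ranged from 54.0% to 87.3% with each animal left out in turn (54.0% without WT animal 2, 87.3% without mutant animal 1, animals numbered as given below). The agreement of direction is part of the definition of a shared gene, since 8473 genes (48.3%) kept 1 direction in the 3 regions at any p.

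The mice were adult, of the C57 Bl6J strain, and either WT or Pcm1-/-, with mutants and WT mice taken as littermates. The mutant allele is a gene-trap insertion made in E14Tg2a.4 embryonic stem cells, which are not of the C57BL/6J strain. It was carried on C57BL/6J after a stated minimum of 3 generations of backcrossing, so mutants may hold donor strain sequence around Pcm1 and elsewhere. Each genotype was represented by 3 animals, each sampled in the 3 regions, and the labels name no treatment. The allele was not restricted to a cell type, and the tissue was whole dissected region rather than sorted cells.

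Pcm1 encodes the scaffold protein of centriolar satellites, granules that travel along microtubules around the centrosome and deliver proteins to centrioles and to the base of the primary cilium. Most neurons of the adult brain carry a single primary cilium, a membrane antenna that holds receptors for neuromodulators and the enzymes that read them. Membrane proteins destined for the cilium, for synapses or for the cell surface begin their life in the endoplasmic reticulum, where the translocon threads hydrophobic segments into the lipid bilayer.

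Counts on genes ranged from 24950537 to 33405081 per library, with a median of 27492168 in WT and 30046822 in mutant libraries, and 86.8% to 89.2% of the reads entering the counting were assigned to a gene. Tags of the deposited libraries named 6 animals, and deviations from the group mean correlated at 0.232 on average (0.0801 to 0.386, 18 pairs) between regions of the same animal and at −0.115 between regions of different animals (36 pairs). Deviations sum to 0 over the libraries of a group, so the average for different animals follows largely from that for the same animal. Mutant replicates 1, 2 and 3 were the same 3 animals in each region. WT animals are numbered here by their frontal cortex replicate, which matches the hippocampus, while striatum replicates 1, 2 and 3 came from WT animals 3, 1 and 2. Reads on the Y chromosome numbered 3064 to 4393 in all libraries of WT animal 2 and mutant animal 2 and 67 to 112 in the others, so each genotype held 1 male of 3. Drd1, a dopamine receptor that marks striatal projection neurons, measured 323 to 430.3 CPM (gene counts scaled to a common library size) in WT striatum and 6.14 to 13.1 CPM in the other WT libraries, which fits the region labels. Lane 5 held every WT striatum library, and lanes 3 and 4 held the mutant ones, so within the striatum the effects of genotype and lane cannot be told apart.

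Pcm1 itself was the shared gene with the smallest p. The frontal cortex libraries held 3425, 3497 and 4032 reads in WT and 388, 396 and 346 in mutants. The striatum gave 4632, 4172 and 4919 reads in WT and 494, 520 and 443 in mutants, and the hippocampus 3693, 3688 and 4322 against 358, 313 and 432. All 9 mutant libraries lay below all 9 WT libraries, with no overlap in any region. The common log2 fold change (mutant against WT) was −3.41 (SE 0.0586, adjusted p = 2.96e-18 in limma), and the interaction of region and genotype did not pass the test for Pcm1 (adjusted p = 0.874 in limma).

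The rising genes with the smallest p coded largely for multi-pass membrane proteins, led by the ceramide synthase gene Cers6. In frontal cortex Cers6 measured 60.2, 57.8 and 64.7 CPM in WT and 106, 123 and 114 CPM in mutants. Striatal values were 44.1, 48.5 and 44.4 CPM in WT and 84.6, 75.0 and 75.0 CPM in mutants, and hippocampal values 64.7, 76.5 and 68.0 CPM and 136, 145 and 128 CPM. In each region every mutant library was above every WT library. The common log2 fold change was 0.88 (SE 0.0568, adjusted p = 3.53e-08 in limma), with 0.91, 0.78 and 0.96 in frontal cortex, striatum and hippocampus.

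Maco1, whose product macoilin is a membrane protein of the endoplasmic reticulum in neurons, measured 78.2, 83.9 and 84.2 CPM in WT and 131, 142 and 140.5 CPM in mutant frontal cortex. Its striatal values were 79.5, 76.2 and 81.5 against 122, 117 and 119 CPM, and its hippocampal values 72.0, 70.5 and 65.1 against 94.1, 108 and 95.4 CPM, in the same order. The groups did not overlap in any region, and the log2 fold change was 0.62 (SE 0.0486, adjusted p = 7.15e-07 in limma). Grina, a membrane protein of the family of Bax inhibitors, was far more abundant, at 435, 428 and 396 CPM in WT and 588, 609 and 580.3 CPM in mutant frontal cortex. Striatum gave 471, 443 and 448 against 609, 609 and 622 CPM and hippocampus 528, 540.3 and 482 against 670.0, 749 and 648 CPM for Grina. Here too the groups stood apart in the 3 regions, with a log2 fold change of 0.45 (SE 0.0419, adjusted p = 6.29e-06 in limma). Tram1l1, a paralog of the translocating chain-associated membrane protein of the translocon, rose by a log2 fold change of 0.50 (SE 0.0482, adjusted p = 8.27e-06 in limma), from 25.9 to 27.0 CPM in WT to 38.5 to 40.2 CPM in mutant frontal cortex.

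Of the other rising genes named by the smallest p, Npy5r, Gpr173, Chrm1, Chrm3, Drd1 and Ackr2 belong to the family of G protein-coupled receptors and their chemokine-binding relatives. Tmem179, Tmem87a and Dcbld1 code for further membrane proteins. Log2 fold changes of these 9 genes ran from 0.35 for Tmem87a to 0.77 for Npy5r, and all 14 genes named by this rule had WT and mutant libraries apart in the 3 regions. Across all genes tested, 333 (1.9%) had every mutant library above every WT library in each region and 74 (0.422%) had every one below, 407 (2.32%) in all. An unadjusted p under 0.05 with a common effect above 0 was found for 2111 genes (12%) and with one below 0 for 1596 (9.1%). Among shared genes, 311 of the 682 rising and 65 of the 288 falling genes had that separation, and 4 and 5 had it in no region.

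**Figure D1:**
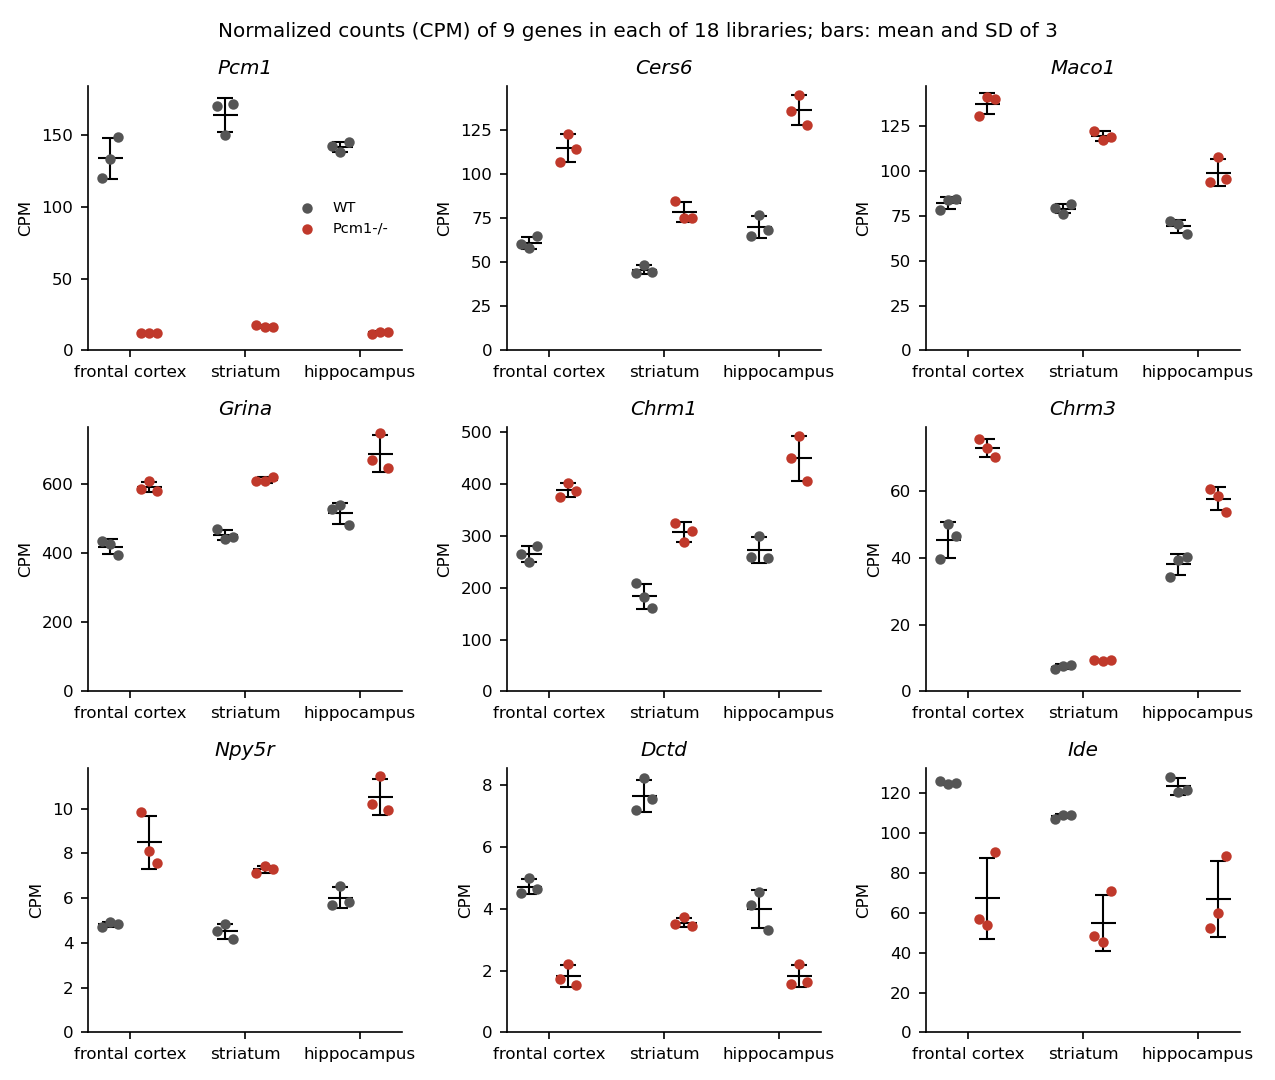
CPM (y axis, linear from 0) of 9 genes in the 18 libraries, by region (x axis); grey points are WT libraries, red points Pcm1-/- libraries, and black bars the mean and SD of 3. Pcm1, Dctd and Ide were lower and the other 6 genes higher in every mutant library of each region, and the mutant Ide values held 1 animal at 71.0 to 90.6 CPM above the other two.

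**Figure D2:**
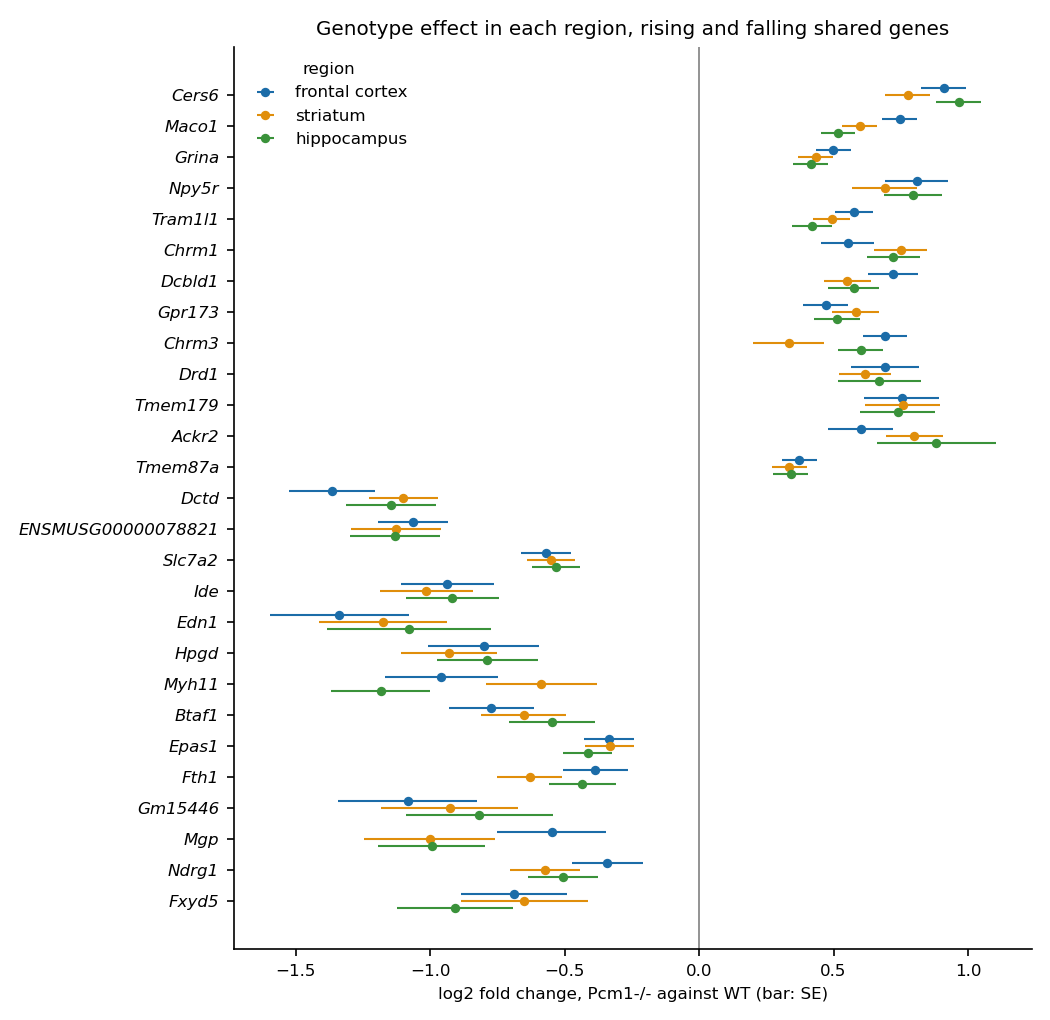
Log2 fold change of mutants against WT (x axis; bars are SE) in frontal cortex (blue), striatum (orange) and hippocampus (green) for 13 of the 14 rising and all 14 falling shared genes with the smallest p at an average log2 CPM of at least 1, Pcm1 apart. Each gene lies on 1 side of 0 in the 3 regions, which the rule requires, and sizes ranged from close between regions (Tmem179: 0.75, 0.76 and 0.74) to further apart (Chrm3: 0.69, 0.33 and 0.60; Myh11: −0.96, −0.59 and −1.19).

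Promoter windows of genes that moved together were read from RefSeq (GRCm38.p6), from 250 bases before to 50 after an annotated start. Windows were matched for 516 of the 682 rising genes and 218 of the 288 falling ones. The start is the one RefSeq gives and can lie inside the span of the gene in GENCODE. The windows of Cers6 (chr2:68861191-68861490, plus strand) and Maco1 (chr4:134853296-134853595, minus strand), the 2 rising genes with the smallest p, are shown with the motifs named next in capitals, and in both the start coincides with the GENCODE start.
Cers6: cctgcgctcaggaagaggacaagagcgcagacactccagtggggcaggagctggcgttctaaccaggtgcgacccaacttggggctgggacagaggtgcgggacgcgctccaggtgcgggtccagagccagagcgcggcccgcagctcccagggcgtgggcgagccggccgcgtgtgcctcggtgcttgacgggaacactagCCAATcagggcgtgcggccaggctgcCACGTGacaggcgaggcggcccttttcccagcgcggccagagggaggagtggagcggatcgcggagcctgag
Maco1: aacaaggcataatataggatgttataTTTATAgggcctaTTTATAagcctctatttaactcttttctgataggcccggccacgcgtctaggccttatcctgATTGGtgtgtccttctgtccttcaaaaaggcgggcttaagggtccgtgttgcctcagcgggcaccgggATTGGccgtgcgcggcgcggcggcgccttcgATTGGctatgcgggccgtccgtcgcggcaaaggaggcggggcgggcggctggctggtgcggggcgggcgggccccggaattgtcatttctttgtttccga
The motifs searched, on both strands, were the cAMP response element TGACGTCA, the unfolded protein response element TGACGTGG, the endoplasmic reticulum stress element, the sterol regulatory element TCACNCCAC, the TATA box TATAAA, the CCAAT box CCAAT, the NRF1 site and the E-box CACGTG. The stress element contains the CCAAT box, so a match to the first is also a match to the second. The Cers6 window held a CCAAT box and an E-box, and that of Maco1 held 3 CCAAT boxes and 2 TATA boxes. An E-box was present in 13.7% of 657 windows of rising genes, 7.25% of 276 windows of falling genes and 9.27% of all 16261 matched windows of tested genes. The NRF1 site was present in 13.7%, 6.52% and 11.1%, in the same order, and windows of rising and falling genes had a median GC content of 62.3% and 59.3%. The unfolded protein response element was found in 10 of the 657 windows and the endoplasmic reticulum stress element in 1, 1.52% and 0.152%, against 0.836% and 0.117% of all windows. The sterol regulatory element was in 1.52% of windows of rising, 2.90% of falling and 1.19% of all genes, and the TATA box in 7.46%, 12.3% and 7.87%. The CCAAT box was in 35.0%, 31.2% and 37.0% and the cAMP response element in 3.96%, 2.54% and 2.72%. These shares are descriptions of letters in a window, without a test.

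Rising and falling genes differed in the proteins they encode. Hydrophobic stretches, counted on the longest coding transcript of each gene as separate runs with a mean Kyte-Doolittle hydropathy of at least 1.6 over 19 residues, stand for likely transmembrane segments or signal sequences. Of 670 rising shared genes with a coding sequence, 86.4% had 1 or more stretches, compared with 36.0% of 272 falling genes and 37.7% of all 15410 coding genes tested. Proteins with 4 or more stretches made up 36.1% of the rising genes, 5.15% of the falling genes and 8.96% of all. Seen from the other side, 0.947% of 9608 genes without a stretch rose, against 5.95% of 2940 genes with 1 stretch, 10.9% of 1482 with 2 to 3, 17.8% of 787 with 4 to 6 and 17.2% of 593 with 7 or more. The falling share was 1.81%, 2.01%, 1.69%, 0.889% and 1.18% of the same classes.

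Rising genes were more abundant than tested genes as a whole, with a median average log2 CPM of 5.73 against 3.71, so the comparison was repeated at an average log2 CPM of at least 4. There 1.30% of 5140 genes without a stretch, 16.9% of 2883 genes with 1 or more and 29.3% of 668 genes with 4 or more were rising shared genes. Median transcript length was 3270 bases in rising genes and 2942 in all tested genes, and median GC content 49.9% and 50.7%. Over all 593 genes with 7 or more stretches, whether called or not, the median deviation from the WT mean of the region was above 0 in all 9 mutant libraries, at 0.0325 to 0.114 on the log2 scale. In the 9 WT libraries it lay between −0.0268 and 0.0225, below every mutant value. In classes of 4 to 6 stretches the groups were also apart, at 0.0332 to 0.145 in mutants and −0.0318 to 0.0238 in WT. They overlapped in the classes of 0, 1 and 2 to 3 stretches, where mutants lay at −0.0117 to 0.0530, −0.0124 to 0.0291 and −0.0072 to 0.0709. The WT values are centred on their own mean, which holds them near 0.

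**Figure D3:**
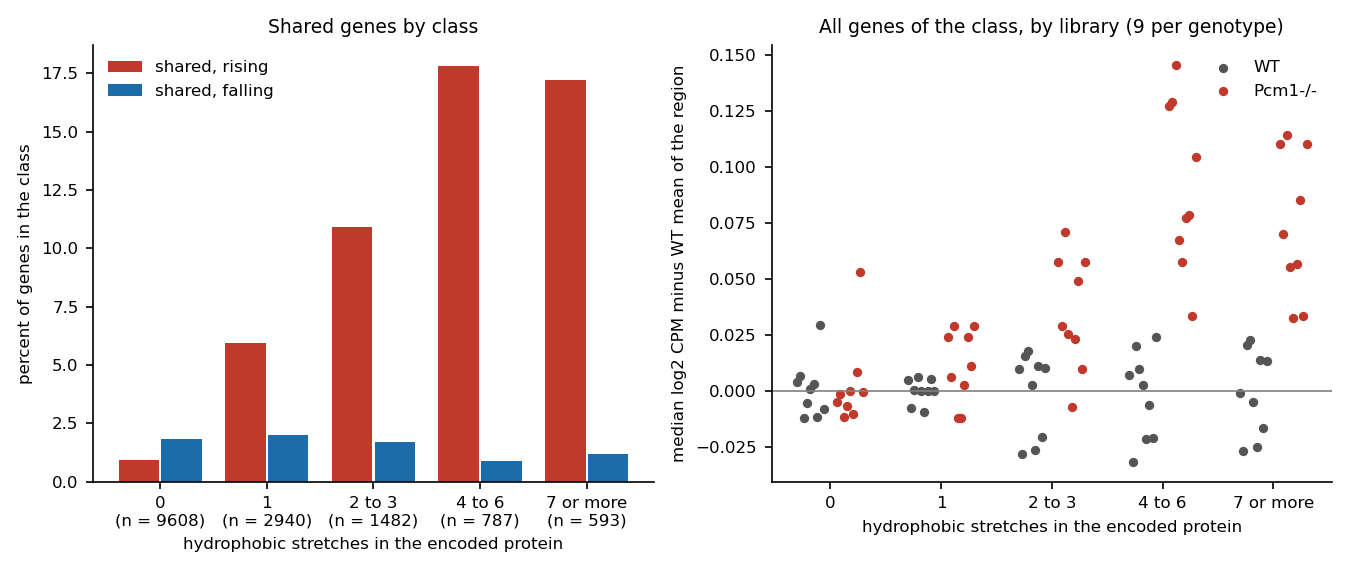
Left, percent of coding genes in each class of hydrophobic stretches (x axis, number of genes below) that were shared rising (red) or shared falling (blue) genes. Right, the median over all genes of a class of log2 CPM minus the WT mean of the region (y axis) in each of 9 WT (grey) and 9 Pcm1-/- (red) libraries; the rising share climbed from 0.947% to 17.8% over the first 4 classes, and in the last class mutant libraries lay at 0.0325 to 0.114.

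Genes were also counted by symbol family. Rising shared genes included 23 of 61 tested Gpr genes, 13 of 36 protocadherins (Pcdh), 35 of 215 Tmem genes, 42 of 321 solute carriers (Slc) and 10 of 88 potassium channel genes (Kcn). Falling shared genes numbered 1, 0, 4, 4 and 0 in these families. Beside the 3.89% of all tested genes that rose, the counts were 0 of 114 ribosomal protein genes (Rpl and Rps) and 7 of 371 zinc finger genes (Zfp). Families were chosen with the list of shared genes in view and are descriptive.

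Receptors for amine transmitters were among the rising groups. Of 33 tested receptors for acetylcholine (muscarinic), dopamine, serotonin, noradrenaline and histamine, 13 rose and none fell as shared genes, beside 3.89% rising and 1.64% falling over all genes tested, and the list's median log2 fold change was 0.29 against 0.01 over all genes tested. The muscarinic receptor Chrm1 measured 265, 249 and 280.5 CPM in WT and 375, 402 and 387 CPM in mutant frontal cortex. It measured 208, 182 and 160.1 against 325, 287 and 309 CPM in striatum and 259, 300.4 and 258 against 450.4, 492 and 406 CPM in hippocampus. Mutant libraries of Chrm1 were all above the WT libraries of their region, with a log2 fold change of 0.67 (SE 0.0666, adjusted p = 1.04e-05 in limma). Chrm3 rose by 0.61 (adjusted p = 3.03e-05) and the dopamine receptors Drd1 and Drd5 by 0.65 and 0.79 (adjusted p = 5.44e-05 and 0.0007 in limma). Drd1 did so at levels that differed widely, from 377 to 574 CPM on average in striatum and from 6.97 to 11.2 CPM in hippocampus (n = 3 each). Drd2 did not pass the test, with a log2 fold change of 0.18 (SE 0.115, adjusted p = 0.378 in limma). Its sign turned with lane as a covariate (−0.0643) and without striatum (−0.366).

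Some subunits of receptors for GABA and glutamate rose. Of 14 tested subunits of the GABA-A receptor, the main inhibitory channel of the brain, 7 rose as shared genes, none fell, and all 14 had a log2 fold change above 0 (median 0.27), where 3.89% of all tested genes rose and 52.0% had a log2 fold change above 0. Gabrb2 measured 198, 229 and 262 CPM in WT and 294, 290.5 and 297 CPM in mutant frontal cortex, 178, 163 and 169 against 232, 197 and 206 in striatum and 131, 170.4 and 169.9 against 202, 197 and 199.6 in hippocampus. Its groups did not overlap in any region, and the log2 fold change was 0.34 (SE 0.0608, adjusted p = 0.00243 in limma). Gabrg3 rose by 0.37 (adjusted p = 0.00917 in limma). Of 18 ionotropic glutamate receptor subunits 13 had a log2 fold change above 0 and 5 below, and 5 rose and none fell as shared genes, namely Gria2 (0.35, adjusted p = 0.00709 in limma), Grid1 (0.26), Gria1 (0.28), Grin1 (0.26) and, named after its value was seen, Gria3 (0.26). With counts summed per animal Gabrb2, Grid1 and Gria1 lost their calls. The lists share libraries, and no test compared them with each other.

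Genes of the neuronal cilium divided evenly by direction. Of 26 tested genes for receptors, enzymes and trafficking factors of the cilium, 6 rose as shared genes (3.89% of all genes tested), none fell (1.64%), and 13 lay on each side of 0. The 6 were the receptors Npy5r, Gpr83 (0.55) and Gpr19 (0.38), the adenylate cyclase Adcy3 that marks neuronal cilia and, named after their values were seen, the receptors Gpr161 (0.61) and Npy2r (0.43). Npy5r, a neuropeptide Y receptor, measured 4.73, 4.95 and 4.83 CPM in WT and 9.84, 8.09 and 7.59 CPM in mutant frontal cortex, 4.52, 4.86 and 4.19 against 7.11, 7.45 and 7.31 in striatum and 5.70, 6.56 and 5.81 against 10.2, 11.5 and 9.93 in hippocampus. The mutant values were all above the WT ones within each region, with a log2 fold change of 0.77 (SE 0.0735, adjusted p = 7.9e-06 in limma). Its neighbor on chromosome 8, Npy1r, named here after its values were seen, rose by 0.59 (SE 0.0705, adjusted p = 7.92e-05 in limma). Adcy3 rose by 0.28 (SE 0.0626, adjusted p = 0.012 in limma) and, like Gpr83 and Gpr19, lost its call when counts were summed per animal.

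The ciliary somatostatin receptor Sstr3 passed the test for the common effect but was no shared gene. Its log2 fold change was 0.37 (adjusted p = 0.00482 in limma), with 0.31 (SE 0.0791) in frontal cortex, 0.46 (SE 0.0795) in hippocampus and −0.20 (SE 0.213) in striatum. Striatal levels were low, at 2.21, 2.16 and 2.34 CPM in WT and 1.68, 2.29 and 1.88 CPM in mutants, and those groups overlapped. Mchr1, the receptor for melanin-concentrating hormone, measured a log2 fold change of 0.28 (SE 0.0953, adjusted p = 0.0886 in limma) and did not pass. Sstr4, a relative of Sstr3 singled out after its values were seen, was higher in all mutant libraries of each region and rose by 0.82 (SE 0.105, adjusted p = 0.000136 in limma).

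Few genes for the structures around Pcm1 itself were shared, beside a background of 5.53% of all tested genes. Of 64 tested genes for centriolar satellites and the centrosome none rose, and Nde1 and Ccp110 fell by 0.45 and 0.30 on the log2 scale (adjusted p = 0.00464 and 0.0291 in limma), with a list median of −0.01. Nde1 binds dynein regulators at the centrosome, and Ccp110 caps the distal end of centrioles. None of 44 genes for intraflagellar transport and the BBSome, the carriers of ciliary cargo, was a shared gene, and none of 21 genes for motile cilia was. Both Nde1 and Ccp110 lost their calls with counts summed per animal. The centrosome list held 31 genes higher and 33 lower in mutants.

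Lipid enzymes of the endoplasmic reticulum membrane were examined as 2 lists. In the pathway of cholesterol synthesis 9 of 22 genes rose, none fell and all 22 had log2 fold changes above 0 (median 0.24), beside 3.89% rising, 1.64% falling and 52.0% above 0 over all genes tested. Srebf2, the transcription factor that drives the pathway, measured 285, 297 and 295 CPM in WT and 315, 337 and 310.4 CPM in mutant frontal cortex, 242, 229 and 237 against 276, 256 and 279.6 in striatum and 229, 257 and 232 against 287, 275 and 276 in hippocampus, with no overlap in any region. Srebf2 and the enzymes Msmo1 and Cyp51 rose by 0.18, 0.34 and 0.33 (adjusted p = 0.00861, 0.0103 and 0.0116 in limma). Among 11 ceramide synthases and fatty acid elongases, Cers6, Cers4, Cers5 and Elovl4 rose, with log2 fold changes of 0.37 for Cers4, 0.32 for Cers5 and 0.44 for Elovl4, and Elovl1, named after its value was seen, fell by 0.42 on the log2 scale (adjusted p = 0.0451 in limma). The summed level of the 11 genes was 122% to 128% of the WT mean in mutants and 95.0% to 107% in WT frontal cortex, 109.9% to 112% against 93.4% to 108% in hippocampus and 95.9% to 101% against 96.3% to 103% in striatum. The groups overlapped in striatum only, where the list's median log2 fold change was −0.02. With counts summed per animal Srebf2, Msmo1, Cyp51 and Cers5 lost their calls (edgeR's quasi-likelihood test).

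Components that insert proteins into the endoplasmic reticulum membrane were examined after the rising genes had been seen. Of 30 genes for the translocon, the signal recognition particle receptor, the translocon-associated proteins and the membrane insertase complex, 9 rose, none fell, and 28 had a log2 fold change above 0 (median 0.11), beside 3.89%, 1.64% and 52.0% of all genes tested. Tram1l1 and Ncln led this list, with 0.50 and 0.38 (adjusted p = 7.33e-05 for Ncln in limma). Spcs3, a subunit of the signal peptidase, rose by 0.30 (SE 0.0466, adjusted p = 0.000853 in limma). Of 18 target genes of the unfolded protein response, also listed after the values were seen, none was a shared gene (5.53% of all genes tested) and the median was 0.03. Averaged over regions, their summed level was 115% of the WT mean in WT animal 1, 91.3% and 94.1% in WT animals 2 and 3 and 100.5% to 101% in mutants, so that WT animals lay on both sides of the mutants.

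Secreted peptides and activity-dependent genes were mostly higher in mutants. Over all genes tested 3.89% rose as shared genes and 52.0% had a log2 fold change above 0. Among 22 neuropeptide and granin genes 17 were above 0 and 3 rose as shared genes, namely Vgf (0.36), Cort (1.01) and Scg2 (0.42), with adjusted p of 0.00292, 0.00717 and 0.00736 in limma. Cort and Scg2 lost their calls among the 4 animals that share a tag prefix (adjusted p = 0.116 and 0.0614 in limma), where Vgf kept its call. All 21 immediate early genes had a log2 fold change above 0 (median 0.30), and 5 passed as shared genes, led by Nr4a1 (0.56), Fosl2 (0.61), Egr4 (0.51) and Junb (0.37), with Ier5 (0.27) named after its value was seen. Nr4a1 measured 115, 134 and 111 CPM in WT and 145, 171 and 132 CPM in mutant frontal cortex, 118, 139 and 116 against 196, 241 and 178 in striatum and 75.2, 62.2 and 84.6 against 126, 138 and 91.3 in hippocampus. Mutant and WT values of Nr4a1 overlapped in frontal cortex only, and Nr4a1, Fosl2, Egr4 and Junb lost their calls with counts summed per animal. Of 21 genes of the circadian clock 1 was a shared gene, close to the background of 5.53%, namely Per1 (0.35, adjusted p = 0.0267 in limma), and it too lost its call with counts summed per animal.

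Neuron markers were listed by region and class, with 5.53% of all tested genes shared as the background. None of 16 cortical neuron markers, 17 markers of hippocampal fields and 15 markers of inhibitory neurons was a shared gene, with medians of 0.02, 0.06 and 0.05. Of 18 genes that mark striatal projection neurons 2 rose, Drd1 and Gpr6 (0.42, adjusted p = 0.0103 in limma), and the median was 0.14; Gpr6 lost its call with counts summed per animal. As a percent of the WT mean, the summed cortical neuron list lay at 110.0 to 116 in mutant and 98.1 to 101 in WT frontal cortex, at 94.5 to 108 and 97.2 to 104 in striatum and at 114 to 139.8 and 90.3 to 115 in hippocampus. The inhibitory neuron list lay at 106 to 113 against 96.2 to 105 in frontal cortex, 104 to 107 against 98.1 to 102 in striatum and 101 to 119 against 91.6 to 109.7 in hippocampus. The sums of the cortical list did not overlap in frontal cortex, and those of the inhibitory list did not overlap in frontal cortex and striatum. The hippocampal field list was apart in hippocampus, at 104 to 119 in mutants and 99.1 to 100.8 in WT, and the striatal projection neuron list in frontal cortex, at 105 to 111 against 99.5 to 100.4. Both lists overlapped in the other regions. The part of these levels in the rise of receptor genes was not tested.

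**Figure D4:**
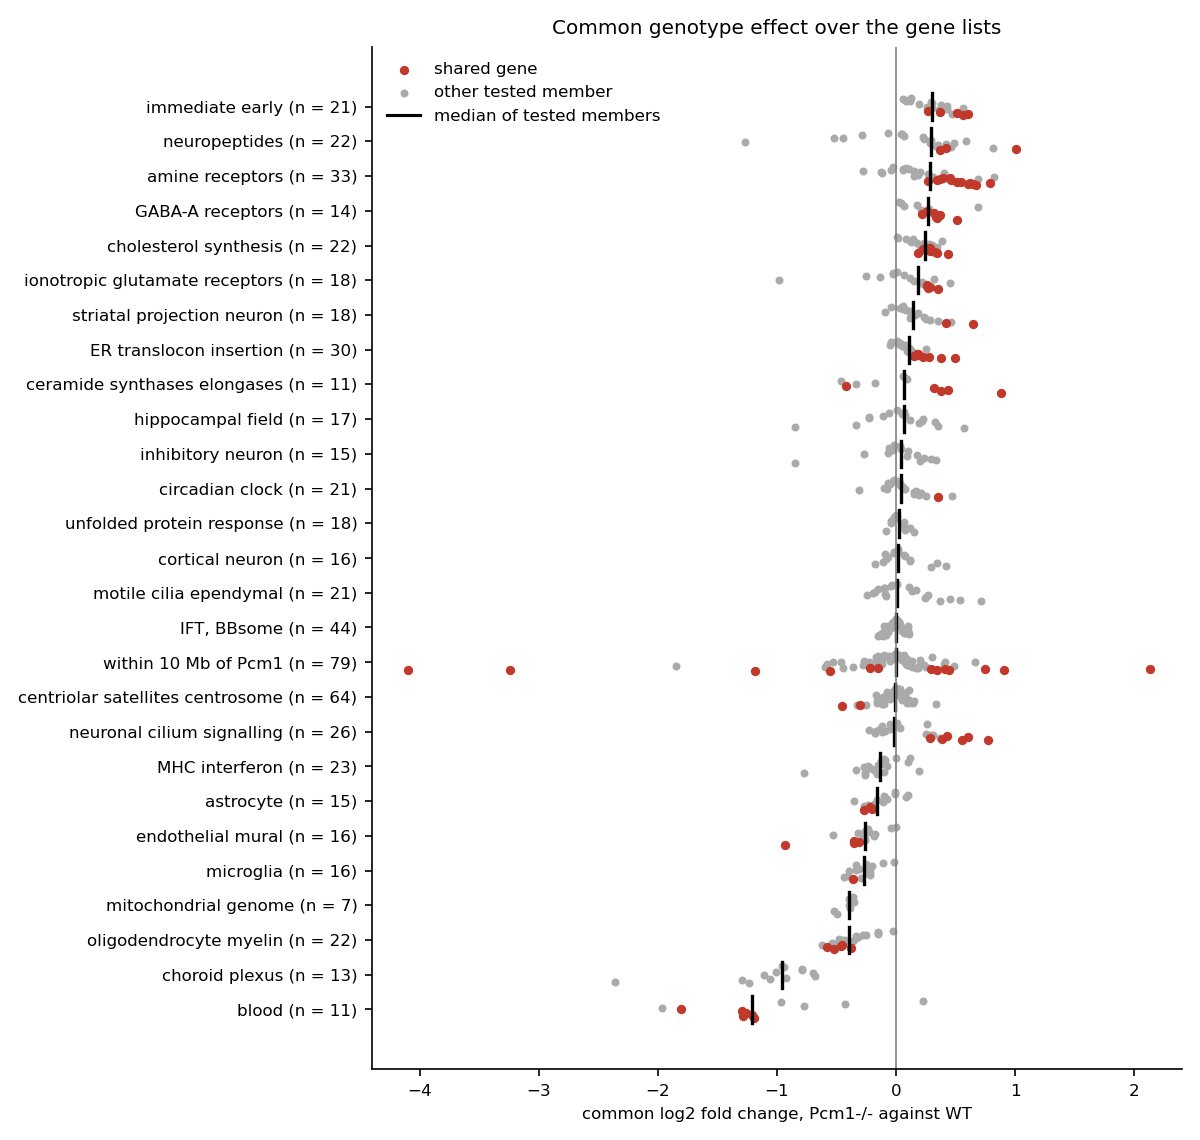
Common log2 fold change (x axis) of each tested gene in the gene lists (y axis, number of tested genes in parentheses), with shared genes in red, other genes in grey and the list median as a black bar. Lists of receptors, neuropeptides, immediate early genes and cholesterol synthesis have medians of 0.18 to 0.30, and those of blood, choroid plexus, oligodendrocytes and microglia have medians of −1.21 to −0.27.

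The falling genes had larger changes than the rising ones, with a median size of 0.42 against 0.28 on the log2 scale, and 77 of 288 against 44 of 682 were at least 1.5-fold. Falling genes were also less abundant, with a median average log2 CPM of 4.14 against 5.73. Genes at low level need a larger change to pass, so these sizes are not compared at like abundance. Dctd, which deaminates deoxycytidylate, measured 4.52, 4.98 and 4.65 CPM in WT and 1.72, 2.22 and 1.55 CPM in mutant frontal cortex, 7.2, 8.21 and 7.54 against 3.5, 3.72 and 3.44 in striatum and 4.12, 4.53 and 3.33 against 1.58, 2.22 and 1.65 in hippocampus. Its mutant libraries were all below the WT libraries of the region, and the log2 fold change was −1.19 (SE 0.0984, adjusted p = 1.4e-06 in limma). ENSMUSG00000078821, which has no symbol in the annotation used, fell by 1.10 on the log2 scale (SE 0.0945, adjusted p = 1.98e-06 in limma). The vessel genes Edn1, which codes for endothelin, and Myh11, the myosin of smooth muscle, had log2 fold changes of −1.21 and −0.94 (adjusted p = 0.00028 and 0.000794 in limma). Hpgd, which inactivates prostaglandins, had a log2 fold change of −0.85 and starts 15.1 Mb from Pcm1 on chromosome 8. Epas1, a hypoxia-inducible transcription factor, had a log2 fold change of −0.36. Other falling genes named by this rule were Mgp, an inhibitor of calcification (−0.83), Fxyd5, a regulator of the sodium pump (−0.75), and Ndrg1 (−0.48), which myelinating cells require. Edn1, Epas1, Mgp and Fxyd5 lost their calls with counts summed per animal. Fth1, the ferritin heavy chain, had −0.48 (adjusted p = 0.00172 in limma), and since reads with several positions were dropped and Fth1 has near-identical copies in the genome, its level is uncertain.

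The lists with the lowest medians were those of blood, choroid plexus, glia, vessels and the mitochondrial genome, and their counts stand beside 1.64% falling over all genes tested. All 22 tested oligodendrocyte and myelin genes were lower in mutants, 5 as shared genes (Olig2, Olig1, Ermn, Sox10 and, named after its value was seen, Myrf), with a median of −0.40. Olig2 measured 33.9, 26.4 and 19.2 CPM in WT and 18.8, 19.4 and 17.5 CPM in mutant frontal cortex, 35.0, 43.7 and 41.3 against 24.0, 31.6 and 27.9 in striatum and 49.3, 34.1 and 36.4 against 27.3, 25.2 and 27.6 in hippocampus, with overlap in frontal cortex only. The summed level of the 22 genes in mutants was 79.5% to 83.5% of the WT mean in frontal cortex, 60.8% to 96.6% in striatum and at most 80.5% in hippocampus, beside WT libraries at 89.0% to 116%, 99.3% to 100.8% and 65.9% to 128%. All 16 microglia genes and all 16 endothelial and mural genes were lower, with 1 shared gene (Tmem119, −0.36) and 4 (Myh11, Vtn, Flt1 and Pecam1) and medians of −0.27 and −0.26. Of 15 astrocyte genes 13 were lower, 3 as shared genes (Ndrg2, Aldoc and Glul), with a median of −0.16. With counts summed per animal, Olig2, Sox10, Tmem119, Ndrg2, Aldoc, Glul, Vtn, Flt1 and Pecam1 lost their calls. Averaged over regions, the summed microglia list lay at 121%, 82.4% and 96.5% of the WT mean in WT animals 1, 2 and 3 and at 83.1%, 74.4% and 85.9% in mutant animals 1, 2 and 3. For the endothelial and mural list WT animal 1 was at 112% and WT animals 2 and 3 at 94.3% and 93.8%, with mutants at 81.6% to 84.3%. For the oligodendrocyte list the WT animals were at 115%, 86.6% and 98.5% and the mutants at 69.9% to 78.1%. WT animal 1 was the highest in the 3 lists, and WT animal 2 lay within the range of the mutants for microglia. In whole tissue, fewer cells of a type and less RNA per cell cannot be told apart.

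Of 11 blood genes 10 were lower in mutants and 6 fell as shared genes (1.64% of all genes tested), with a median of −1.21. The hemoglobin gene Hbb-bs measured 65.3, 104 and 75.2 CPM in WT and 22.3, 44.9 and 39.5 CPM in mutant frontal cortex, 79.9, 42.6 and 137 against 27.3, 54.5 and 52.3 in striatum and 79.7, 127 and 74.0 against 21.4, 37.9 and 41.0 in hippocampus. The groups overlapped in striatum only, and Hbb-bs, Hba-a1, Hba-a2 and Alas2 lost their calls with counts summed per animal. The summed blood list lay at 32.7% to 63.7% of the WT mean in mutant libraries and at 62.0% to 139% in WT libraries. All 13 choroid plexus genes were lower, none as a shared gene, and their summed level depended on single libraries, with WT striatum replicate 3 at 274% of its group's mean and the other two at 12.6% and 13.0%. Without that library 815 genes were shared. Of 13 protein-coding genes of the mitochondrial genome 7 were tested, all 7 were lower (median −0.39) and none passed the test, while 2 of all 19 tested mitochondrial genes fell as shared genes, the transfer RNA genes mt-Tc (−0.63) and mt-Te (−0.59), named after their values were seen. The part of these cell types and of the dissection in the other differences was not tested.

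Around Pcm1 on chromosome 8, a larger share of genes was shared than elsewhere, given here without a test. Within 10 Mb of the start of Pcm1, 13 of 79 tested genes (16.5%) were shared, compared with 6.8% at 10 to 20 Mb, 5.84% at 20 to 40 Mb, 3.28% farther along the chromosome and 5.52% on other chromosomes. The 7 rising genes, Ubxn8, Gsr, Leprotl1, Saraf, Cldn23, AI429214 and Sgcz, had starts at −7.62 to −3.72 Mb from that of Pcm1, on the proximal side. The 6 falling genes were Vps37a, Gm5345, Slc7a2 and Fgl1 at −0.728 to −0.0483 Mb, and Ufsp2 and Dctd at 4.74 and 6.86 Mb on the distal side. Of these 13 genes the rule names Dctd, Slc7a2, Saraf and Gm5345, and the others are listed after their values were seen. Donor strain sequence linked to the allele would travel with it, so the effects of Pcm1 genotype and of linked sequence cannot be told apart for these neighbors. The same limit may reach shared genes farther along the chromosome, such as Hpgd at 15.1 Mb and Npy5r and Npy1r at 25.4 and 25.5 Mb.

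Slc7a2, a transporter of cationic amino acids, measured 40.6, 35.0 and 34.8 CPM in WT and 26.3, 21.9 and 26.4 CPM in mutant frontal cortex, 47.5, 49.7 and 42.2 against 33.1, 30.2 and 31.5 in striatum and 47.4, 41.0 and 40.9 against 32.8, 27.2 and 29.2 in hippocampus. The mutant libraries were all lower, and the log2 fold change was −0.55 (SE 0.0566, adjusted p = 1.47e-05 in limma). Saraf, a regulator of store-operated calcium entry, rose by 0.45 (SE 0.0545, adjusted p = 8.58e-05 in limma). Fgl1, a neighbor of Pcm1, had 34, 19 and 16 reads in WT striatum and 0, 0 and 0 in mutant striatum, and the processed pseudogene Gm5345 had 18, 19 and 20 reads in WT and 3, 2 and 2 in mutant hippocampus. Fgl1 had no reads in 8 of the 9 mutant libraries and 1 in the other.

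**Figure D5:**
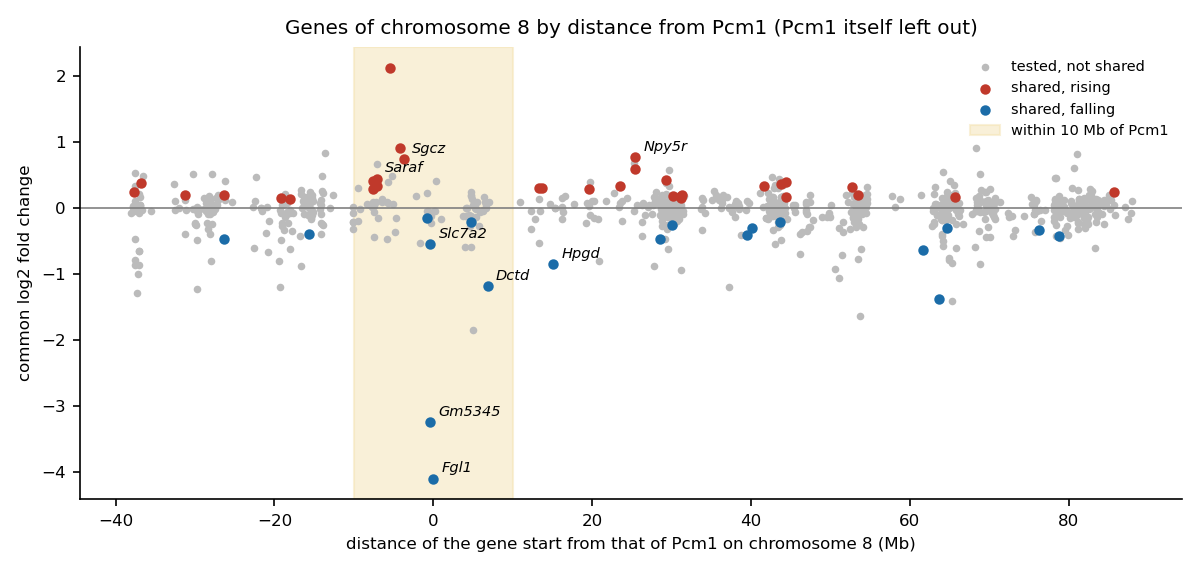
Common log2 fold change (y axis) of tested genes on chromosome 8 by distance of their start from that of Pcm1 (x axis, Mb), with shared rising genes in red, shared falling genes in blue, other genes in grey and the 10 Mb on each side shaded. In the shaded part 13 of 79 genes were shared, and the falling genes Fgl1, Gm5345, Dctd and Slc7a2 stand below the bulk.

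On other chromosomes, a few falling genes differed among mutant animals as well as between genotypes. The part of remaining donor strain sequence in these differences was not tested. Ide, which codes for the insulin-degrading enzyme on chromosome 19, measured 126, 124 and 125 CPM in WT and 57, 54.0 and 90.6 CPM in mutant frontal cortex, 107, 109 and 109 against 48.4, 45.1 and 71.0 in striatum and 128, 121 and 121 against 52.5, 59.8 and 88.3 in hippocampus. Mutant animal 3 lay between the WT values and the other mutants in the 3 regions. Btaf1, which lies on the same chromosome (19:36926079-37012752, against 37268743-37337852 for Ide, GRCm38), had 52.5, 54.3 and 63.5 CPM in WT and 28.9, 28.1 and 45.0 CPM in mutant frontal cortex, and again the third mutant value was the highest, in striatum (32.5, 29.4 and 39.5) and hippocampus (35.1, 28.7 and 47.5) as well. Fgfbp3, next to Btaf1 and named after its values were seen, was also highest in mutant animal 3 among frontal cortex mutants, with 4.08, 3.8 and 6.82 CPM in mutants and 6.93, 7.72 and 7.71 CPM in WT. Cpeb3 and March5, which lie between Btaf1 and Ide, had log2 fold changes of 0.06 and 0.07 (adjusted p = 0.633 and 0.421 in limma). Cpeb3 and March5 overlap on opposite strands, and since the strand setting of the counting is not given, reads of the overlap may be mixed between them. Log2 fold changes were −0.96 for Ide, −0.66 for Btaf1 and −0.59 for Fgfbp3, and the 3 genes lost their calls with counts summed per animal.

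In Gm15446 on chromosome 5, mutant animal 3 was likewise the highest of the mutants, with 2.88, 3.18 and 6.11 CPM in mutant and 8.54, 7.91 and 7.67 CPM in WT frontal cortex, 2.82, 4.42 and 6.69 against 8.64, 8.32 and 8.10 CPM in striatum and 2.73, 3.02 and 6.43 against 7.05, 6.71 and 6.68 CPM in hippocampus. Its call was lost with counts summed per animal (adjusted p = 0.175 with edgeR's quasi-likelihood test) and among the 4 animals that share a tag prefix (0.177 in limma). The processed pseudogene Gm6969 on chromosome 12, chosen after its values were seen, had 1, 3 and 9 reads in WT and 110, 124 and 96 in mutant frontal cortex, 7, 3 and 7 against 112, 187 and 121 in striatum and 1, 4 and 4 against 148, 298 and 147 in hippocampus. All 9 mutant libraries were above all 9 WT libraries, and its reads could also stem from a near-identical copy.

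The interaction of region and genotype passed the test for 2 of 17545 genes (0.0114%), Grik1 and Prag1, and for none of the 970 shared genes, while 1320 genes (7.52%) had an unadjusted interaction p under 0.05. In 22 genes the common effect passed the test but the regions differed in direction, and Crhbp, Kcnk12 and Bdnf had the smallest p among them. Each of the 3 rose in frontal cortex and hippocampus by their own estimates and had a negative estimate in striatum, where WT levels were low. Bdnf, a neurotrophin, measured 56.8, 53.3 and 61.4 CPM in WT and 101, 79.2 and 74.6 CPM in mutant hippocampus but 1.62, 1.01 and 0.873 against 0.786, 0.605 and 0.904 CPM in striatum, with estimates of 0.56 (SE 0.0972) and −0.57 (SE 0.375).

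The count of shared genes depended on the animals and regions in the fit. Leaving out each animal in turn kept 190 of the 970 calls (168 rising, 22 falling), leaving out each region in turn kept 122, and counts summed per animal (3 animals against 3, edgeR's quasi-likelihood test) kept 196 with 155 rising. With lane as a covariate 758 were kept. In all 38 alternative analyses 67 genes stayed called in the same direction, 61 rising and 6 falling. The 6 falling ones were Pcm1, Dctd, ENSMUSG00000078821, Slc7a2, Hpgd and Myh11. Dctd, Slc7a2 and Hpgd lie on chromosome 8 with Pcm1, and for them the effects of genotype and of linked sequence cannot be told apart. ENSMUSG00000078821 has no position in the annotation used. The 61 rising ones held all 14 rising genes named by the smallest p, and, listed after their values were seen, Ncln, Scamp5, Tmem68, Saraf, Tex264, Cacng8, Sstr4, Neto2, Cdipt, Gpr85, Drd5, Alg2, Spcs3 and Reep1 among others. Of the 60 of them with a coding sequence, 59 had 1 or more hydrophobic stretches (98.3%). The remaining gene with a coding sequence was Gpatch11.

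At the edge of the call, the genes just inside were Cds2 (log2 fold change 0.21, adjusted p = 0.0498), ENSMUSG00000086869 (−2.52, 0.0498) and Olfml3 (−0.26, at the limit of 0.05), and those just outside were Myod1 (1.40, 0.0501), Ifi30 (−0.62, 0.0502) and Abcc9 (−0.26, 0.0502), all by limma.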

How the data were processed

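RNA of frontal cortex, striatum and hippocampus from 6 mice was extracted with RNeasy columns and made into stranded polyA libraries with a KAPA kit. The authors trimmed reads with Trim Galore and cutadapt, aligned them to GRCm38 with STAR and counted them per gene with HTSeq, and the deposited values are raw counts per Ensembl gene without normalization. Reads with several positions were not counted, and the strand setting of the counting is not given in the sources used here. HTSeq summary rows that name no gene were left out of library sizes and tests, so that 86.8% to 89.2% of each library was used. Symbols, positions and coding sequences came from GENCODE M21.

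Genes with at least 10 counts in 1 or more libraries (17545) were kept. Counts were TMM-scaled (edgeR 4.0.16) and fitted with limma 3.58.1 in R 4.3.3, using voom weights, terms for region and genotype, and a correlation of 0.1503 between libraries of an animal. The interaction of region and genotype and the effect within each region came from the same weights. P-values were adjusted by the Benjamini-Hochberg method, and animals came from tags on the deposited libraries. Scripts in Python 3.11.15 did the rest, and the fits were tested on simulated data.

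Named genes were Pcm1; the 14 rising and 14 falling shared genes with the smallest p at an average log2 CPM of at least 1; at most 4 shared genes of each list; Sstr3, Mchr1, Adcy3, Drd1 and Drd2; the 3 smallest p among called genes with differing directions; and the 3 smallest interaction p. The shared genes, the lists and the families were chosen with earlier results of these data known. Promoters are RefSeq windows on GRCm38.p6, without chromosome 18. Alternatives covered scaling, filters, thresholds, DESeq2 1.42.0, edgeR, sums per animal, lane, replicate block, and leaving out each library, animal or region. A few genes that the naming rule selects are not reported here.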

Additional observations from a re-analysis of the deposited data

Results flagged for a closer look

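The genotype effect differed between regions for Grik1, a kainate receptor subunit, and for Prag1, a pseudokinase (limma interaction test, adjusted p = 0.0263 for each). Grik1 had log2 fold changes of 0.21 in frontal cortex, −1.32 in striatum and −0.13 in hippocampus. Prag1 had −0.06, 0.36 and 1.17 in the same order. With lane as a covariate no gene passed the interaction test, and with animals left out in turn 0 to 10 did. WT striatum libraries all came from 1 lane, and the part of lane in these differences was not tested further.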

How the results depend on the processing

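Of 992 genes called and 970 shared, an adjusted p of 0.01 left 335 and 330 and one of 0.1 gave 1733 and 1686. Treating libraries as independent gave 1823 and 1795 with edgeR's quasi-likelihood test, 1905 and 1858 with voom, and 2448 and 2390 with DESeq2. Counts summed per animal gave 243 and 224, and the 4 animals with a common tag prefix gave 101 and 101. Mutant animal 1 and WT animal 1 stand outside that prefix, and each is the only animal with its own. Without frontal cortex 211 were called and 210 shared, and without striatum 311 and 310. Leaving out animals gave 209 to 1897 called and 205 to 1865 shared, lowest without mutant animal 1 and highest without WT animal 3; without WT animal 1 there were 467 shared genes and without mutant animal 3 there were 388. Leaving out libraries gave 674 to 1373 and 663 to 1346. The interaction count of 2 became 0 with lane as a covariate and 0 to 10 with an animal left out. The cause of these shifts was not tested. Across 94 named genes and 38 settings, 3266 of 3570 values kept direction and side of the threshold, 285 lost the call, 15 gained it and 4 reversed. The log2 fold change of Drd2 became −0.0643 with lane and −0.366 without striatum, and that of Grik1 0.0248 without striatum. Cpeb3 ranged from −0.00738 without WT animal 2 to 0.141 without WT animal 3. Pcm1 ranged from −3.48 to −3.36.

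A block for region and replicate number gave 2339 called and 2274 shared genes, 1250 rising and 1024 falling. No label ties same-numbered mice of the genotypes. Their deviations correlated at 0.167, −0.0823 and 0.265 on average in frontal cortex, striatum and hippocampus, against −0.0833, 0.0444 and −0.130 for other numbers. Deviations sum to 0 within a group, so the values for other numbers follow largely from those for the same number. Since not every same-numbered pair exceeded 0.1 (lowest 0.0428 in frontal cortex and 0.0955 in hippocampus), they were not treated as pairs. In striatum the numbers join other animals than in frontal cortex and hippocampus, so the striatal value does not bear on the pairs of those regions. Number 2 joined the males in frontal cortex and hippocampus but not in striatum. The share of rising shared genes with a hydrophobic stretch, in alternatives chosen after seeing the data, was 87.9% at an average log2 CPM of at least 4, 97.4% with sums per animal, 89.6% with lane, 95.1% in the 4 animals, 95.7% without striatum and 73.4% under the block.

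The p-values rest on 18 libraries with a single correlation of 0.1503 within animals, so they measure mostly the spread between libraries. The sums per animal alone rest on the spread between 3 animals and 3. Genes near 10 counts have little depth behind them.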

Other observations

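Gabra2, a subunit of the GABA-A receptor singled out after its values were seen, was low in 1 WT animal. WT animal 1 had 35.9 CPM in frontal cortex, 47.6 CPM in striatum (replicate 2) and 42.3 CPM in hippocampus. The other 15 libraries had 79.9 to 237 CPM. The common log2 fold change was 0.69 (SE 0.269) and did not pass the test (adjusted p = 0.144 in limma).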
